A study of Mus musculus with 16 samples.

Results

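Genes induced by the tumour suppressor p53 were higher in 2 comparisons of mouse embryonic fibroblast (MEF) arrays, and each gene's response was compared between them. Response 1 is the level with BMP2, with or without Adriamycin (ADR), minus the level without BMP2, with or without ADR, in 4 arrays against 4 of the set labelled transformed. Response 2 is the level at 16 h minus that at 8 h in the set labelled primary, also 4 against 4. The 16 arrays are all those of the series, 8 in each set, and the responses share no array. Both contrasts were chosen by the measured rise of p53 targets in them, and the genes were selected on their values in these same contrasts, so the responses and their difference are given as descriptions with no test, and passing a threshold serves only to sort genes. A gene or a contrast passed at an adjusted p under 0.05 (limma with Benjamini-Hochberg adjustment) and a log2 change of at least 0.5 in size. Of 10899 genes fitted, 8811 were detected on at least 2 arrays of each set, and 1675 of these were sorted into a class. Passing in both responses in 1 direction made a gene shared, which held for 116 higher and 88 lower genes (1.32% and 0.999% of the 8811). Passing in both in opposite directions held for 39 genes. Passing in 1 response alone, with the other under 0.25 in size and the difference of the responses also passing, held for 1365 genes of response 1 and 67 of response 2.

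The study asked how MEFs respond to BMP2, a bone morphogenetic protein whose receptors signal through SMAD1, and to ADR (doxorubicin), a topoisomerase II poison that breaks DNA. By their labels, 8 arrays held MEFs transformed with RasV12 and E1A, either Smad1f/f (titles with pbabe) or Smad1-/- (titles with cre), either left untreated (0 h) or given BMP2, ADR or both for 12 h. The other 8 held non-transformed primary MEFs of passage 2, at 8 h or 16 h of no treatment, BMP2, ADR or both, and no Smad1 genotype is labelled for them. Titles state 100 ng/ml for BMP2 alone on transformed arrays and on the primary array of 8 h. They state 0.3 uM for ADR alone on transformed arrays, and the other treated arrays have no dose in their titles. The design text states 50 ng/ml for BMP2 and 1 ug/ml for doxorubicin, so the doses are uncertain. Each condition had 1 array, and no label says how many cultures or clones lie behind it. In response 1 the pairs without ADR compare 12 h with 0 h, so BMP2 and time in culture cannot be told apart there, while the pairs with ADR compare arrays of 12 h. Oncogenic Ras and E1A, known to raise p53 activity, are on both sides of response 1.

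p53 is a transcription factor that is degraded in unstressed cells through the ubiquitin ligase MDM2 and accumulates after DNA damage or oncogene activity. It then induces genes that stop the cell cycle, such as Cdkn1a, genes of apoptosis, such as Fas and Pmaip1, genes of DNA repair and metabolism, and Mdm2 itself, which closes a negative feedback loop. Repression of cell cycle genes by p53 runs in large part through p21, the product of Cdkn1a, and the retinoblastoma family of proteins, which E1A binds and inactivates. No probe here names Trp53, the gene of p53 itself, and p53 protein was not measured.

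Several arrays do not follow their labels in marker genes. Smad1 was at 1.53, 1.32, 1.31 and 1.40 on the Smad1f/f arrays (untreated, BMP2, ADR, both) and at 1.04, 1.34, 1.51 and 1.72 on the Smad1-/- arrays. These levels overlap between the genotypes, and whether the probe lies in the deleted part is not known. A level is the log2 ratio of a probe's signal to the 75th percentile of all signals on the array, so 0 is the level of that percentile. Of 16 fibroblast markers with a probe, 16 were detected on transformed arrays and 8 on primary arrays. Col1a1, Col1a2, Col3a1, Thy1, Lox, Dcn, Lum and Postn were undetected on all 8 primary arrays. Col5a1, Pdgfra, Pdgfrb, Vim and Fn1 were detected on all 8 of them, Col6a1 and S100a4 on 7 and Eln on 2, so the fibroblast markers divide there. The agent labels did not follow all their known targets in either set. On transformed arrays ADR alone against untreated gave the median p53 target -0.02 and -0.06 (Smad1f/f, then Smad1-/-), against -0.0004 and -0.03 for all genes. BMP2 alone against untreated gave the median BMP target 0.09 and -0.22, against 0.07 and 0.07 for all genes. These pairs also compare 12 h with 0 h. On primary arrays the ADR label passed as higher for 0 of the 73 p53 targets measured and for 4 of 17 BMP targets (Id1, Id3, Dlx2 and Gata2), where 0.165% of all genes passed as higher. The BMP2 label passed as higher for 11 p53 targets and, among BMP targets, as higher for Dlx2 and lower for Id2, where 2.56% and 1.16% of all genes passed. The sets and the agents are therefore named by their labels only. Each array detected 40.1% to 46.8% of its probes, and precision is limited by how few arrays there are. In bulk RNA of this kind, fewer cells of a type and less RNA per cell cannot be told apart.

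Many p53 targets passed as higher in both sets. None of those measured passed as lower in either, with the scaling used and all arrays kept. In counts of genes, here and below, rose and fell mean passed as higher and passed as lower. Of 86 listed targets, 73 were measured. In response 1, 40 of the 73 rose and 0 fell, where 14% of all genes fitted passed as higher and 13.1% as lower (27.2% in all). In response 2, 28 rose and 0 fell, where 2.02% of all genes passed as higher and 1.84% as lower. Some targets were lower without passing. In the pairs of response 1, 58 and 58 of the 73 were higher with BMP2 alone than untreated. With both agents against ADR, 57 and 57 were higher (Smad1f/f, then Smad1-/-). At 16 h against 8 h, 58, 56, 57 and 58 were higher (untreated, BMP2, ADR, both). Of the 8811 genes detected in both sets, 1.32% were shared higher and 0.999% shared lower. These shares, and those of all genes above, also stand against the counts of each list below. Of all genes called in response 2, 52.4% were higher, or 90.1% with arrays scaled to their median. The median target changed by 0.58 in response 1 and by 0.36 in response 2 on the log2 scale, against 0.01 and -0.13 for all genes fitted. With neqc (background correction and quantile normalization of the signals) 41 targets rose and 3 fell in response 1, and 40 rose in response 2. Their medians were then 0.69 and 0.63, and 32 were shared. With arrays scaled to their median 38 rose and 1 fell in response 1, and 39 rose in response 2. The medians were then 0.53 and 0.53, with 29 shared, so which set has the more or larger rises depends on the scaling. Of the 5 genes taken as markers of the response, Cdkn1a, Mdm2 and Dcxr rose in both, Fas passed in response 1 and not in response 2, and H1f2 rose in neither. 23 targets passed in both responses, 17 in response 1 and not in response 2, 5 the other way round and 28 in neither. Of the 17 and the 5, 3 and 1 meet the rule for response 1 alone and response 2 alone. The rule chose the contrasts on such genes, so nothing is read from these counts beyond what they list. The 13 listed targets without a detected probe include Bax, Btg2, Sesn1, Ppm1d, Gdf15 and Tigar.

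**Figure D1:**
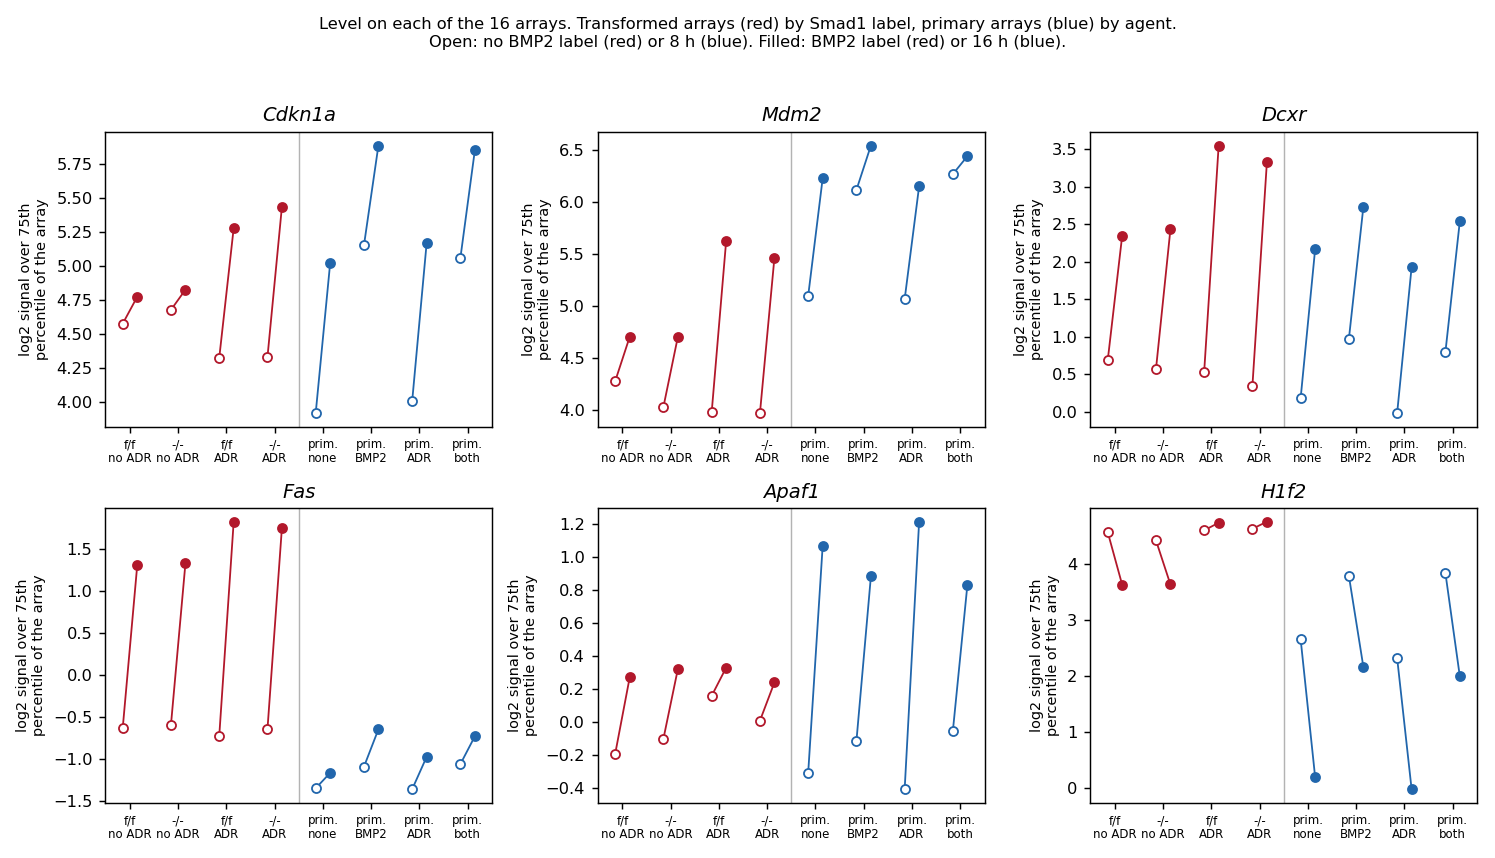
Level of Cdkn1a, Mdm2, Dcxr, Fas, Apaf1 and H1f2 on each of the 16 arrays, as log2 signal over the array's 75th percentile. Lines join the 2 arrays of a pair, open to filled being no BMP2 to BMP2 on transformed arrays (red) and 8 h to 16 h on primary arrays (blue). Cdkn1a, Mdm2 and Dcxr rise in all 8 pairs, Fas is highest on the 4 transformed arrays with BMP2, and H1f2 falls in all 4 primary pairs.

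Feedback and arrest genes come first. Cdkn1a, which encodes the cyclin-dependent kinase inhibitor p21, was at 4.58 and 4.68 on the untreated arrays, 4.32 and 4.33 with ADR, 4.77 and 4.83 with BMP2 and 5.28 and 5.44 with both, the Smad1f/f array first in each pair. On primary arrays it was at 3.92, 5.15, 4.0 and 5.06 at 8 h and at 5.02, 5.89, 5.17 and 5.86 at 16 h, in the order untreated, BMP2, ADR and both, and all levels below follow these orders. Its lowest array with BMP2 in the transformed set stood above its highest without, whereas in the primary set the BMP2 arrays at 8 h overlapped the others at 16 h. The responses were 0.60 ± 0.075 and 0.95 ± 0.075 (standard error, SE, of the fit), and their difference was -0.35 ± 0.11 and did not pass, though it did with median scaling and with neqc. A further Cdkn1a probe gave 0.59 and 0.70.

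Mdm2, the ubiquitin ligase that degrades p53, was at 4.28 and 4.04 on the untreated arrays, 3.99 and 3.97 with ADR, 4.71 and 4.71 with BMP2 and 5.63 and 5.46 with both. On primary arrays it stood at 5.10, 6.12, 5.07 and 6.27 at 8 h and at 6.23, 6.54, 6.15 and 6.44 at 16 h. Its transformed arrays separated by the BMP2 label, and its primary arrays overlapped between 8 h and 16 h, with the 2 BMP2 arrays already high at 8 h. The responses were 1.06 ± 0.12 and 0.70 ± 0.12, with a difference of 0.36 ± 0.17, which did not pass. A further probe, detected on all arrays, gave 0.47 and 0.78, with the larger value in response 2.

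Ccng1, a cyclin of the p53 feedback loop, went the other way in size on the probe used. It was at 3.85 and 3.79 on the untreated arrays, 3.40 and 3.45 with ADR, 4.14 and 4.07 with BMP2 and 4.27 and 4.31 with both on transformed arrays and at 2.65, 3.36, 2.88 and 3.37 at 8 h and at 4.24, 4.41, 4.25 and 4.35 at 16 h on primary arrays, with no overlap in either set. The 16 h arrays lie between 4.24 and 4.41, while the 8 h arrays with BMP2 stand above the 2 without. The responses were 0.57 and 1.25, and the difference of -0.68 ± 0.12 passed. It was the 1 shared target with a response 2 larger by a difference that passed. Of its further probes, 1 gave 0.35 and 1.08 and the other 0.25 and 0.11, and with the mean of its probes it passed in response 2 and not in response 1. Trp53inp1, a nuclear protein that promotes p53 activity, was at 1.87 and 1.53 on the untreated arrays, 2.24 and 2.05 with ADR, 2.65 and 2.69 with BMP2 and 3.35 and 3.42 with both, and at 1.36, 1.86, 1.56 and 1.91 at 8 h and at 3.13, 2.95, 3.12 and 3.04 at 16 h on primary arrays, which do not overlap in either set. Its responses were 1.10 and 1.39, with a difference of -0.28 ± 0.14. Pml, the scaffold protein of nuclear bodies, changed by 1.20 and 0.60. Of its 2 further probes, the better detected gave 0.37 and 0.037 and passed in neither, and the other, detected on 2 arrays, stood at -0.20 in response 2. Of 20 feedback and arrest genes measured, 9 rose in response 1 and 7 in response 2, and 5 were shared.

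Others of this list passed in 1 response or in neither. Rprm, reprimo, a mediator of arrest in G2, changed by 2.31 ± 0.076 in response 1. In response 2 it was undetected on the 8 h arrays and at least 1.06-fold higher at 16 h. Phlda3, a p53 target that inhibits AKT, was at 2.68 and 2.73 on the untreated arrays, 2.36 and 2.53 with ADR, 1.98 and 1.61 with BMP2 and 2.55 and 2.76 with both, and at 0.60, 1.26, 0.90 and 1.22 at 8 h and at 1.73, 2.11, 1.44 and 2.39 at 16 h on primary arrays. Every 16 h array thus stood above every 8 h array, while on transformed arrays it was lowest with BMP2 alone. Its responses were -0.35 and 0.92 and their difference -1.27 ± 0.15. Gadd45a, a stress sensor that slows the cycle, stood at -0.09 and -0.16 and passed in neither. Zmat3, an RNA-binding protein induced by p53, stood at 0.019 and 0.36.

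Promoters of shared targets were searched for the p53 motif, the decamer of the consensus and a pair of decamers with a spacer of at most 13 bases, on both strands of the 250 bases before each start. Sequences are from RefSeq, build GRCm38.p6, and are shown for the shared targets whose promoter held a match and whose smaller response was largest. Of 27025 promoters, 18 held the pair (0.0666%) and 2216 a decamer (8.2%). Among genes detected in both sets 456 of 6250 with a promoter held a decamer (7.30%), among shared higher genes 17 of 94 (18.1%). Among all measured targets of the p53 lists 13 of 63 did (20.6%), and among the shared ones 7 of 20 (35%). Among shared lower genes 4 of 72 did (5.56%). Each pair also counts among the decamers. Matches had to be exact, so an element with a mismatched base is missed or marked only in part. Capitals mark the match, which is a description and not a site shown to be bound. The Cdkn1a promoter (chr17:29090729-29090978, plus strand) holds the pair from -73 to -42 relative to the start. The bases just after it, tgacatgttc, depart from the decamer consensus at the first base, so they are unmarked. Ddit4l (chr3:137623422-137623671, plus strand), Ckap2 (chr8:22185820-22186069, minus strand) and Ei24 (chr9:36797335-36797584, minus strand) hold a decamer, at -90 to -81, -203 to -194 and -10 to -1.
Cdkn1a: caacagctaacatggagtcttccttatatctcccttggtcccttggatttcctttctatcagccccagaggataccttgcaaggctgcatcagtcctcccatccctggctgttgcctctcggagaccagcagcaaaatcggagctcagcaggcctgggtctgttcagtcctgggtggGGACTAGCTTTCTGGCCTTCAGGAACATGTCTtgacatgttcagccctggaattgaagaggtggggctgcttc
Ddit4l: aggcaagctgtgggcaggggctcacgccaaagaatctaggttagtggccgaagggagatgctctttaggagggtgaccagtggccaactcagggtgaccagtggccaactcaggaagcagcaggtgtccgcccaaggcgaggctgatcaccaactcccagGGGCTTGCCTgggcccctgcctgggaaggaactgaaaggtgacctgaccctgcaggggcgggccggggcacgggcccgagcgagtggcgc
Ckap2: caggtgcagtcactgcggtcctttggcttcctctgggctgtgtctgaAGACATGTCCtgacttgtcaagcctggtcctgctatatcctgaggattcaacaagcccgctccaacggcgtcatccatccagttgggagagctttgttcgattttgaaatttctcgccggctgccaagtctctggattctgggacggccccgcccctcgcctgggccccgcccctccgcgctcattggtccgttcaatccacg
Ei24: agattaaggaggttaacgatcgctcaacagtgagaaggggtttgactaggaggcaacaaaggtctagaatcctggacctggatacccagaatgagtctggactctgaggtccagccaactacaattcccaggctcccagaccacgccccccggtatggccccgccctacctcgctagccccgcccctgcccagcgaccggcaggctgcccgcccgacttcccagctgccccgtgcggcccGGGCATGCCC

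Apoptosis genes follow. Fas, the death receptor of the FAS ligand, was at -0.62 and -0.58 on the untreated arrays, -0.72 and -0.64 with ADR, 1.31 and 1.34 with BMP2 and 1.83 and 1.76 with both. The 4 transformed arrays with BMP2 stood far above the 4 without, and the response was 2.20 ± 0.063. On primary arrays it was at -1.34, -1.09, -1.35 and -1.06 at 8 h and at -1.16, -0.64, -0.97 and -0.72 at 16 h, undetected at 8 h and detected on 3 of the 4 arrays at 16 h, where it was at least 1.04-fold higher. The measured response 2 of 0.34 ± 0.063 did not pass with the scaling used, though it passed with median scaling and with neqc. The difference was 1.87 ± 0.089.

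Pmaip1, which encodes the BH3-only protein NOXA, was at 0.14 and 0.054 on the untreated arrays, 0.21 and -0.0092 with ADR, 2.31 and 2.37 with BMP2 and 2.50 and 2.60 with both, and at -0.44, 0.35, -0.10 and 0.58 at 8 h and at 0.87, 1.75, 0.90 and 2.04 at 16 h on primary arrays. Neither set overlapped between its sides. The responses were 2.35 ± 0.078 and 1.29 ± 0.078, and the difference of 1.06 ± 0.11 passed. Apaf1, the scaffold of the apoptosome, was at -0.19 and -0.10 on the untreated arrays, 0.16 and 0.007 with ADR, 0.27 and 0.32 with BMP2 and 0.33 and 0.24 with both on transformed arrays, where the sides of response 1 lie close together, and at -0.31, -0.12, -0.41 and -0.053 at 8 h and at 1.06, 0.88, 1.21 and 0.83 at 16 h on primary arrays, where they are far apart. Its responses were 0.32 and 1.22, with a difference of -0.90 ± 0.14.

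Of 16 apoptosis genes measured, 9 rose in response 1 and 7 in response 2, and 6 were shared. Besides Pmaip1 the shared ones were Perp, a desmosomal protein (0.78 and 0.51), Pidd1, a death domain protein that activates caspase-2 (0.91 in response 2, and at least 1.31-fold higher in response 1, undetected on its low side), Ei24, a membrane protein of the endoplasmic reticulum (0.91 and 0.89), Bcl2l11, the BH3-only protein BIM (0.63 and 0.57), and Tnfrsf18, a TNF receptor family member. Tnfrsf18 was undetected on both low sides, and was at least 2.13-fold higher in response 1 and at least 1.17-fold higher in response 2. Bbc3, which encodes the BH3-only protein PUMA, stood at -0.022 and -0.12 and passed in neither.

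Of 9 repair genes measured, 2 rose in response 1 and 3 in response 2, and 2 were shared. Ercc5, the endonuclease XPG of nucleotide excision repair, changed by 0.94 and 0.80, and Mgmt, which removes alkyl groups from guanine, by 0.58 and 0.63. Polk, a translesion DNA polymerase, was at 1.69 and 1.86 on the untreated arrays, 1.14 and 1.60 with ADR, 1.65 and 1.64 with BMP2 and 1.69 and 1.88 with both on transformed arrays, which overlap, and at 1.39, 1.86, 1.34 and 1.82 at 8 h and at 2.46, 2.37, 2.34 and 2.65 at 16 h on primary arrays, which do not. Its responses were 0.14 and 0.85, and the difference of -0.71 ± 0.13 passed. Ddb2, a damage sensor of nucleotide excision repair, stood at -0.18 and 0.068.

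Metabolic and other targets made up the longest list, with 20 of 28 rising in response 1, 11 in response 2 (17 with neqc normalization) and 10 shared. Dcxr, a reductase of dicarbonyls and xylulose, had the largest response 2 of all shared targets. It was at 0.69 and 0.57 on the untreated arrays, 0.54 and 0.35 with ADR, 2.35 and 2.43 with BMP2 and 3.55 and 3.33 with both on transformed arrays and at 0.19, 0.98, -0.015 and 0.79 at 8 h and at 2.17, 2.73, 1.93 and 2.54 at 16 h on primary arrays. Both sets separated without overlap, and levels with both agents were the highest of the transformed set. The responses were 2.38 ± 0.069 and 1.86 ± 0.069, with a difference of 0.52 ± 0.098.

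Ddit4l, an inhibitor of mTOR signalling, changed by 2.57 and 1.04, and Aldh4a1, a mitochondrial enzyme of proline breakdown, by 2.03 and 0.63. The other shared members were Abhd4, a lipase (1.51 and 0.92), Ephx1, an epoxide hydrolase (0.88 and 0.72), Ak1, an adenylate kinase (0.73 and 0.61), Ckap2, a microtubule-associated protein (1.10 and 0.98), Ctsd, the lysosomal protease cathepsin D (1.09 and 0.75), Tmem19, a membrane protein (1.04 and 0.54), and Pltp, the phospholipid transfer protein. Pltp changed by 1.02 in response 1 and was at least 1.28-fold higher in response 2, undetected at 8 h. With the scaling used, the shared response was the larger in response 1 for 18 of the 23 targets and in response 2 for 5. The difference passed for 8 and 1 of them.

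Acer2, an alkaline ceramidase, had the largest difference of all targets. It was at -1.25 and -1.29 on the untreated arrays, -1.18 and -1.13 with ADR, 1.99 and 2.02 with BMP2 and 2.44 and 2.44 with both on transformed arrays. The BMP2 label separated those arrays by more than 3 on the log2 scale, with or without ADR. On primary arrays it was at -0.97, -0.57, -0.87 and -0.47 at 8 h and at -0.51, -0.31, -0.53 and -0.36 at 16 h, all below the transformed arrays with BMP2. The responses were 3.43 ± 0.066 and 0.29 ± 0.066, and the difference was 3.14 ± 0.093. Cyfip2, a member of the WAVE actin regulator (1.63 and 0.038), Slc19a2, a thiamine transporter (1.07 and 0.15), and Dram1, a lysosomal regulator of autophagy (0.96 and 0.058), are the 3 that meet the rule for response 1 alone. For the targets that passed in response 1 and not in response 2 the difference passed in 13 of 17, and for those that passed only in response 2 it passed in 3 of 5, namely Phlda3, Apaf1 and Polk. Plk2, a polo-like kinase, and Inka2 were the other 2, and Polk meets the rule for response 2 alone. Over all target genes the difference passed as higher for 22 and as lower for 8, where 16.9% and 10.9% of all genes did (60.7% of calls higher, or 32.0% with median scaling and 49.5% with neqc).

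**Figure D2:**
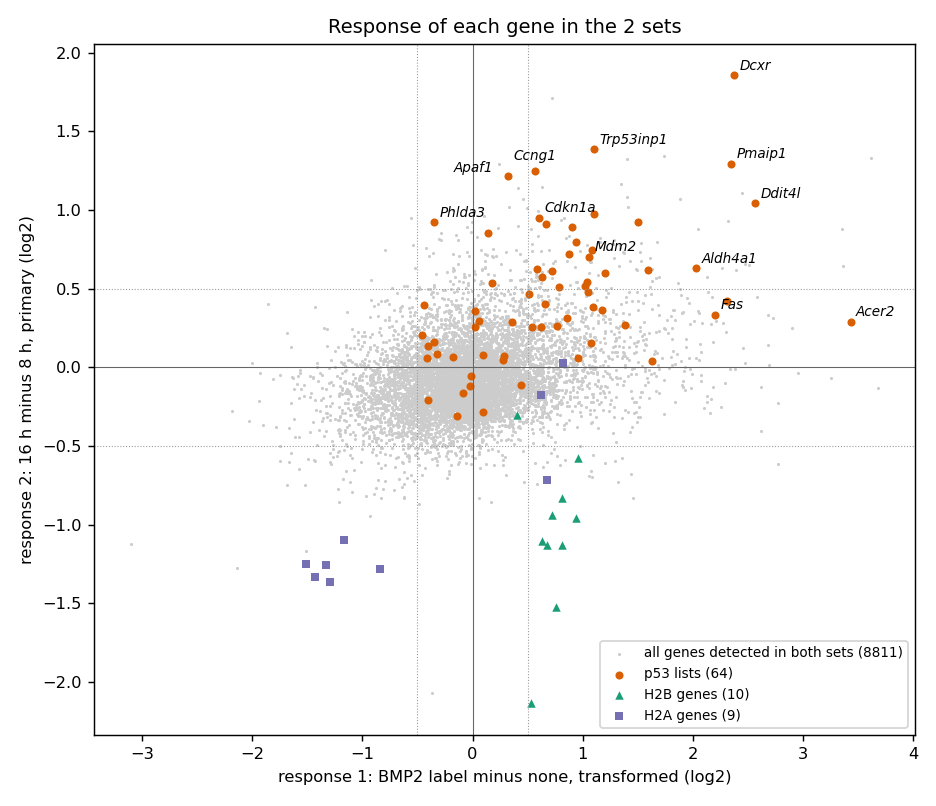
Response 1 (x axis) against response 2 (y axis), in log2 units, for the 8811 genes detected in both sets (grey), with targets of the p53 lists (orange), H2B genes (green triangles) and H2A genes (purple squares). p53 targets lie to the right and above 0 for the most part, Acer2 and Fas far to the right with a response 2 of about 0.3, and H2B genes in the lower right quadrant.

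Across the 8811 genes detected in both sets, the responses had Pearson's r of 0.314 and Spearman's rho of 0.256, and across the 64 targets of the p53 lists among them 0.453 and 0.505. Genes are not independent replicates, so no p is given, and the genes of a response share its arrays. For the pairs of response 1 without ADR, 12 h against 0 h, r with response 2 was 0.252, and for those with ADR, both at 12 h, it was 0.336. The spread of response 1 over genes (SD 0.564) exceeded that of response 2 (SD 0.249).

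The 116 shared higher genes were 9.47% of the genes that rose in response 1 and 53.2% of those that rose in response 2, among genes detected in both sets. Their median was 1.06 in response 1 and 0.67 in response 2, and 114 were higher in all 8 pairs of arrays. The 4 arrays of each side did not overlap for 107 of them in response 1 and for 95 in response 2. The genes were selected on these same values, and the share over all genes was not computed. Counts of pairs and of arrays that do not overlap, here and in the classes below, therefore only describe the selection. The response was larger in response 1 for 93, and the difference passed for 48. At the edge of the class, Gpn3 was just inside with responses of 1.26 and 0.50, and Dcaf4 just outside with 1.89 and 0.50, rounded.

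Beyond the p53 lists, the shared higher genes with the largest smaller response included enzymes and regulators of several kinds. Ldhb, the B subunit of lactate dehydrogenase, was at 0.087 and 0.11 on the untreated arrays, 0.27 and 0.10 with ADR, 1.70 and 1.98 with BMP2 and 3.40 and 3.28 with both on transformed arrays and at 0.035, 0.82, 0.081 and 0.76 at 8 h and at 0.93, 2.00, 1.28 and 1.93 at 16 h on primary arrays. It was highest with both agents in the transformed set, and its primary arrays separated less than those of Dcxr. Its responses were 2.45 and 1.11. Atg9b, an autophagy protein of vesicles, changed by 1.74 and 1.34, and Cdc42bpg, a kinase that binds CDC42, by 1.40 and 1.32. Fbxw9, an F-box protein, changed by 1.40 and 1.08, Nipal4, a predicted magnesium transporter, by 1.88 and 1.07, and Pqlc3, a membrane protein with PQ loops, by 1.35 and 1.16. 1700007K13Rik changed by 3.62 in response 1 and was at least 2.21-fold higher in response 2, undetected at 8 h.

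**Figure D3:**
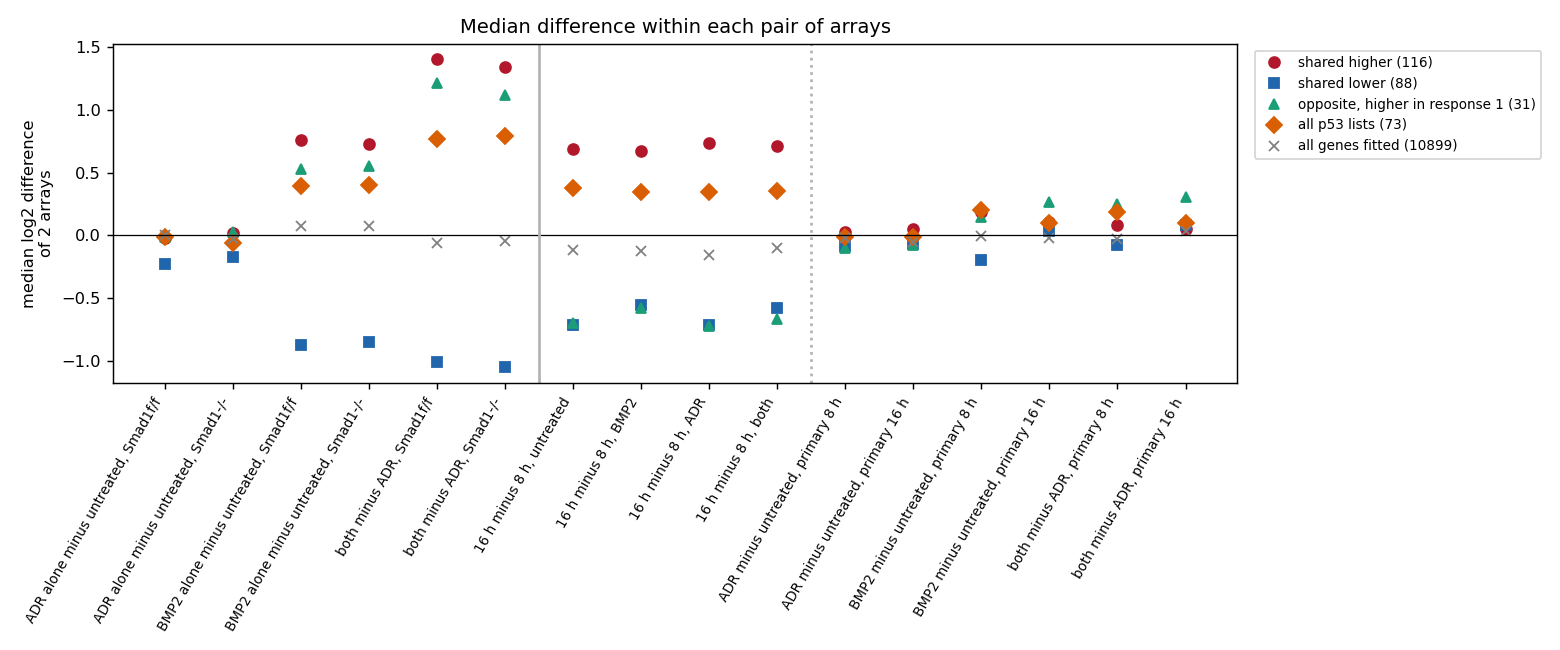
Median log2 difference within each pair of arrays for shared higher (116), shared lower (88) and opposite (31) genes, p53 list members (73) and all genes fitted (10899). Shared higher genes lie between 0.67 and 0.76 in the time pairs and the pairs of BMP2 alone, at 1.34 and 1.40 in the pairs of BMP2 with ADR, and near 0 with ADR alone.

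Response 1 of the shared genes was larger in the pairs with ADR. The median of the shared higher genes was 0.76 and 0.73 for BMP2 alone against untreated (Smad1f/f, then Smad1-/-) and 1.40 and 1.34 for both agents against ADR. It was -0.03 and 0.02 for ADR alone against untreated. For the p53 list members the same medians were 0.40 and 0.40, then 0.77 and 0.79, and -0.02 and -0.06 for ADR alone. The BMP2 by ADR contrast, which the rule did not use, passed as higher for 68 of the 116 shared higher genes and as lower for 0, where 9.28% and 6.23% of all genes passed. It also passed as higher for 18 of the 31 opposite genes that rose in response 1 and as lower for 1. Of the 717 genes higher in response 1 alone, it passed as higher for 223 and as lower for 8. The contrast uses the same 8 arrays as response 1, so these counts are not read as a trait of the shared genes. Among the 73 p53 targets it passed as higher for 30 and lower for 2. It was 0.86 ± 0.15 for Cdkn1a (limma, adjusted p = 0.000738), 1.02 ± 0.24 for Mdm2 (adjusted p = 0.0069) and 1.23 ± 0.14 for Dcxr (adjusted p = 1.67e-05). The pairs of this contrast also differ in time, since the untreated arrays are of 0 h, so its part in the contrast cannot be told apart from that of ADR.

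The remaining labels passed for fewer of these genes. The ADR label averaged over BMP2 on transformed arrays passed as higher for 33 shared higher genes and lower for 0. Of all genes, 2.18% and 2.39% passed, and among p53 targets it passed for 5 and 1. This label sets ADR at 12 h partly against untreated arrays of 0 h, so ADR and time cannot be told apart there. On primary arrays the ADR label passed as higher for 2 of the 116, where 0.165% of all genes did, and as lower for 0, where 0.0459% did. The Smad1-/- label against Smad1f/f passed for 0 of the 116, where 0.284% of all genes passed, 0.257% as higher and 0.0275% as lower. The Smad1 label by BMP2 and the time by ADR contrasts passed for 0 genes with limma (0% of all genes in each), where 568 and 468 had an unadjusted p under 0.05. Without either untreated transformed array the Smad1 label by BMP2 contrast passed for 44 genes. The time by BMP2 contrast passed for 1 shared higher gene, Sytl1, an adaptor of vesicle transport, where 0.00918% of all genes passed, and for 0 when any 1 primary array was left out.

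The BMP2 label on primary arrays was not used by the rule either. It passed as higher for 22 shared higher genes and lower for 2, where 2.56% and 1.16% of all genes passed (3.72% in all). Among p53 targets it passed as higher for 11 of 73, namely Cdkn1a, Mdm2, Plk3, Phlda3, Ptprv, Pmaip1, Dcxr, Ephx1, Ak1, Cyfip2 and Ddit4l, and as lower for Dram1. It was 0.96 ± 0.075 for Cdkn1a (limma, adjusted p = 1.23e-07), 0.71 ± 0.12 for Mdm2 (adjusted p = 0.000474) and 0.69 ± 0.069 for Dcxr (adjusted p = 1.96e-06). Cdkn1a was higher with BMP2 in 4 of 4 primary pairs. The median p53 target was 0.20 higher with BMP2 alone than untreated at 8 h and 0.10 higher at 16 h.

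The 88 shared lower genes had medians of -0.88 and -0.60, and they were 6.64% of those that fell in response 1 and 45.4% of those that fell in response 2, among genes detected in both sets. The sides did not overlap for 82 in response 1 and 85 in response 2, and Nepro was just inside the class at -0.83 and -0.50. This class depends on the scaling. With arrays scaled to their median the count was 35, of which 33 are among the 88, and the median of all genes in response 2 moved from -0.13 to 0.04. The shared higher genes then numbered 213, of which 108 are among the 116.

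Histone H2A genes of the replication-dependent clusters led the shared lower genes. H2ac10 was at 4.81 and 4.80 on the untreated arrays, 4.54 and 4.59 with ADR, 3.83 and 3.80 with BMP2 and 2.62 and 2.75 with both on transformed arrays and at 5.83, 5.48, 5.82 and 5.37 at 8 h and at 4.24, 4.37, 4.27 and 4.28 at 16 h on primary arrays. It was lowest with both agents in the transformed set and below every 8 h array at 16 h. Its responses were -1.44 and -1.33, those of H2ac23 -1.30 and -1.36, of H2ac13 -1.33 and -1.26, of H2ac22 -1.51 and -1.25, of H2ac12 -1.16 and -1.10 and of H2ac20 -0.84 and -1.28. Such genes are near-identical copies, so their probes may read each other's RNA and the 6 are uncertain as separate observations. The other genes named by the same rule were Trmt61a, a subunit of a tRNA methyltransferase (-1.22 and -0.86), and Hk2, hexokinase of glycolysis (-0.93 and -0.94), with Trib3 and Chac1.

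Targets of ATF4, the transcription factor of the integrated stress response, fell in part. Of 22 measured, 9 fell and 1 rose in response 1, and 5 fell in response 2, with 4 shared. Trib3, a pseudokinase, was at 2.44 and 2.35 on the untreated arrays, 3.28 and 3.45 with ADR, -0.43 and -0.25 with BMP2 and -0.21 and 0.014 with both on transformed arrays and at 0.93, 0.89, 0.98 and 1.04 at 8 h and at -0.47, 0.026, -0.18 and -0.026 at 16 h on primary arrays. In the transformed set the arrays with ADR alone stood above the untreated ones, and all 4 transformed arrays with BMP2 were at or below 0.014. Its responses were -3.10 and -1.12, with a difference of -1.98 ± 0.11. Chac1, which breaks down glutathione, was at 2.92 and 2.85 on the untreated arrays, 3.30 and 3.43 with ADR, 0.92 and 0.59 with BMP2 and 1.36 and 1.08 with both and then at 3.10, 2.78, 2.76 and 2.83 at 8 h and at 1.39, 1.72, 1.36 and 1.90 at 16 h, with responses of -2.14 and -1.27. Both sets separated without overlap. The mitochondrial folate enzymes Mthfd2 and Shmt2 changed by -1.58 and -0.65 and by -0.62 and -0.66. The count of 5 in response 2 was 3 with median scaling and 9 without the BMP2 array of either 8 h or 16 h.

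Ribosome biogenesis genes fell in both responses with the scaling used, 8 of 13 in response 1 and 7 in response 2, with 4 shared. Polr1b, a subunit of RNA polymerase I, was at 1.77 and 1.79 on the untreated arrays, 1.65 and 1.48 with ADR, 0.03 and -0.13 with BMP2 and -0.016 and -0.18 with both and then at 2.90, 2.59, 2.57 and 2.63 at 8 h and at 2.12, 2.07, 1.97 and 2.16 at 16 h, for responses of -1.75 and -0.59. Gnl3, the nucleolar GTPase nucleostemin, changed by -1.43 and -0.60, though a further probe gave -1.20 and -0.16. Ncl and Nolc1, nucleolar proteins, were the others shared. The 7 of response 2 became 1 with median scaling. Rrp9, a processing factor of ribosomal RNA, was opposite, at 0.79 and -0.62.

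The 39 opposite genes comprised 31 that rose in response 1 and fell in response 2 (0.352% of the 8811 genes), and 8 the other way round (0.0908%). For the 31 the sides did not overlap for 26 in response 1 and 25 in response 2, and their medians were 0.81 and -0.66. H2B histone genes were 9 of them. H2bc22 was at 2.12 and 2.02 on the untreated arrays, 2.13 and 2.25 with ADR, 2.47 and 2.37 with BMP2 and 3.40 and 3.32 with both on transformed arrays and at 1.41, 2.24, 1.12 and 2.04 at 8 h and at -0.42, 0.72, -0.21 and 0.62 at 16 h on primary arrays. It was highest with both agents in the first set, and in the second it was lower at 16 h and higher with BMP2 at both times. Its responses were 0.76 and -1.52. The others named by rule were H2bc11 (0.81 and -1.13), H2bc12 (0.94 and -0.96), H2bc15 (0.81 and -0.83), Hpdl, a mitochondrial dioxygenase-like protein (1.46 and -0.83), and A730008H23Rik, which went the other way (-0.79 and 0.75).

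By family, the histone genes of the clusters divided. Of 11 H2A genes, 5 rose and 6 fell in response 1, and 7 fell in response 2. Of 11 H2B genes, 10 rose in response 1 and 9 fell in response 2. The BMP2 label on primary arrays passed as higher for 7 of them, where 2.56% of all genes did. Of 4 H3 genes 3 rose and then 2 fell, and of 9 H4 genes 6 rose and then 4 fell, in the same order. H1f2, a linker histone, was at 4.57 and 4.42 on the untreated arrays, 4.6 and 4.63 with ADR, 3.63 and 3.63 with BMP2 and 4.74 and 4.76 with both on transformed arrays and at 2.65, 3.79, 2.32 and 3.84 at 8 h and at 0.19, 2.16, -0.022 and 1.99 at 16 h on primary arrays. It fell with BMP2 alone against untreated and not with both agents against ADR, so response 1 was -0.37 ± 0.10 and did not pass. In the primary set it was lower at 16 h in all 4 pairs (-2.07 ± 0.10) and higher with BMP2 at both times (1.66 ± 0.10, limma, adjusted p = 1.19e-08). The BMP2 by ADR contrast was 1.00 ± 0.21 (adjusted p = 0.00303) and the difference of the responses 1.70 ± 0.15, and H1f2 was higher in neither response. The families were grouped after their values were seen, and near-identical copies can share probe sequence.

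**Figure D4:**
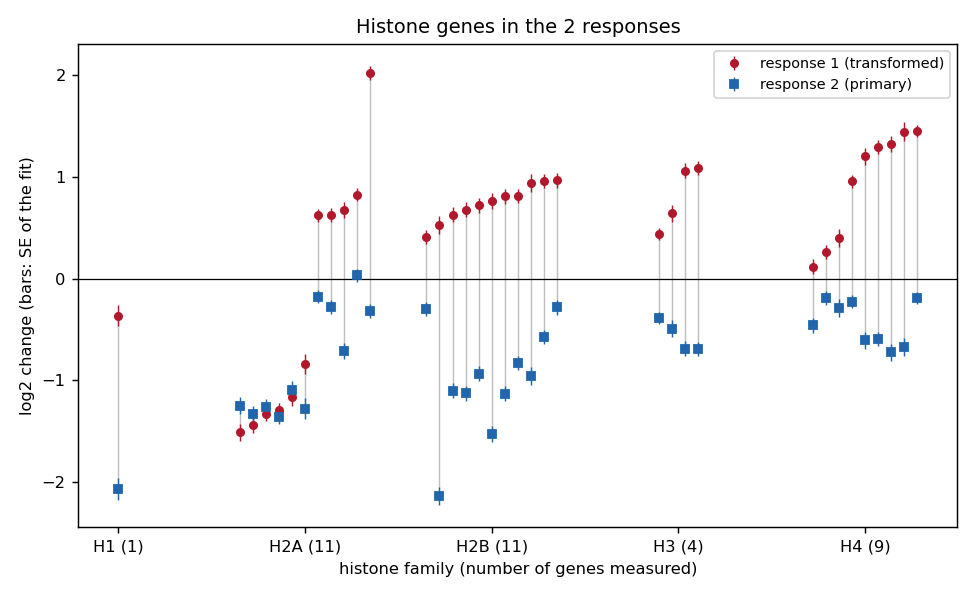
Log2 change of each histone gene measured in response 1 (red circles) and response 2 (blue squares), by family, with bars of 1 SE of the fit. H2A genes divide in response 1, while H2B genes are higher in response 1 for 10 of 11 and lower in response 2 for 9 of 11.

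Genes of response 1 alone were 717 higher and 648 lower, 8.14% and 7.35% of the 8811 genes. Icam1, an adhesion molecule of leukocyte binding, was at 0.52 and 0.57 on the untreated arrays, 0.45 and 0.56 with ADR, 3.73 and 3.80 with BMP2 and 4.56 and 4.72 with both on transformed arrays. With BMP2 it stood at 3.73 or more, and without it at 0.57 or less. On primary arrays it was at -0.72, -1.24, -1.02 and -1.11 at 8 h and at -0.82, -1.39, -1.11 and -1.32 at 16 h, lower with BMP2 at each time. Its responses were 3.68 and -0.13. Dgat2, an enzyme of triglyceride synthesis, changed by 3.25 and -0.065, Plek2, a pleckstrin of the cytoskeleton, by 2.96 and -0.038, Ccno, a cyclin of ciliated cells, by 2.90 and 0.25, and Tlr2, a receptor of bacterial lipoproteins, by 2.62 and -0.12. Pou3f1, a POU transcription factor, was at least 4.82-fold higher in response 1, and Cyp27a1, a sterol hydroxylase, at least 5.46-fold, both undetected on the 4 arrays without BMP2. Flvcr2, a choline transporter, changed by 2.69 and 0.014 on its brightest probe, while a further probe detected on all arrays gave 0.093 and -0.22.

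Members of several pathways passed in response 1 and few or none in response 2. Of all genes, only 3.85% passed in response 2, so 0 of a short list is near that share and is not read as a trait of the list. The difference passed as higher for 16.9% of all genes and as lower for 10.9%. Sterol synthesis genes fell in 11 of 12 cases in response 1 and passed for 0 of 12 in response 2 (1 fell with neqc), and the difference passed as lower for 7. Hmgcs1, the synthase of the mevalonate pathway, was at 4.78 and 4.91 on the untreated arrays, 5.39 and 5.53 with ADR, 4.16 and 4.09 with BMP2 and 3.98 and 4.19 with both and then at 3.91, 3.75, 4.13 and 3.83 at 8 h and at 3.57, 3.56, 3.88 and 3.68 at 16 h, with responses of -1.05 and -0.23. The arrays with ADR alone held its highest levels and those with both agents were near the BMP2 arrays. Of 16 interferon genes, 8 rose and 1 fell in response 1, while 0 passed in response 2 (1 rose with median scaling and 2 with neqc), and the difference passed as higher for 8. Gbp3, a guanylate binding protein, changed by 1.52 and 0.23, Igtp, an interferon-induced GTPase, by 1.11 and -0.00014, and Psmb9, a subunit of the immunoproteasome, was at least 3.42-fold higher in response 1. Targets of NRF2, the factor of the oxidative stress response, rose in 6 of 10 cases in response 1, with Srxn1, a sulfiredoxin, at 1.30 and 0.19 on its brightest probe. The 2 further Srxn1 probes, detected on all arrays, gave 0.82 and 0.79, and 1.19 and 0.54, so its response 2 depends on the probe. In response 2 0 of the list passed, or 2 with median scaling and 1 with neqc.

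Cell cycle genes include many that p53 represses. Of 26 replication and G1/S genes, 11 fell and 2 rose in response 1, while 3 fell and 0 rose in response 2, or 1 with median scaling, and 1 without the untreated array of either 8 h or 16 h. Pold1, the catalytic subunit of DNA polymerase delta, was the 1 shared gene among the replication and mitosis lists. Mcm2, part of the helicase that opens replication origins, changed by -1.16 and -0.40. Of 19 mitosis genes, 5 fell in response 1 and 0 fell in response 2, where Nusap1 rose. Of all genes, 13.1% and 1.84% fell. Top2a, the topoisomerase that doxorubicin poisons, was at 1.41 and 1.72 on the untreated arrays, 1.30 and 1.15 with ADR, 0.76 and 0.70 with BMP2 and -0.62 and -0.67 with both and then at 2.27, 2.16, 2.37 and 2.44 at 8 h and at 2.44, 2.68, 2.70 and 2.42 at 16 h, for responses of -1.35 and 0.25. It was lowest with both agents among transformed arrays, and the primary arrays at 8 h and 16 h overlapped. The BMP2 by ADR contrast passed as lower for 18 of the 26 replication genes and as higher for 0, where 6.23% and 9.28% of all genes passed. The ADR label on transformed arrays passed as lower for 17 of them, where 2.39% of all genes did. Both contrasts include the untreated arrays of 0 h, so time and ADR cannot be told apart in them.

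BMP and TGF-beta targets went both ways or fell in response 1, where 14% of all genes rose and 13.1% fell. Of 17 BMP targets, 6 rose and 3 fell in response 1, or 3 rose without the Smad1f/f ADR array, and 1 fell in response 2. Id1, an inhibitor of differentiation factors and a direct BMP target, stood at -0.019 and -0.21, Id3, its relative, at -1.39 and -0.27, Id2 at 1.11 and -0.0099 and Dlx3, a homeobox gene, at 1.49 and -0.34. On primary arrays Id1 differed from untreated by 1.30 and 1.08 with ADR (8 h, then 16 h) and by -0.26 and -0.17 with BMP2, and the ADR label came to 0.96 ± 0.17 (limma, adjusted p = 0.0151). Id2 stood at 1.04 and 0.73 with ADR and at -0.60 and -0.70 with BMP2. The Smad1-/- label against Smad1f/f passed as higher for 8 of the 17 BMP targets, where 0.257% of all genes did, with Id1 at 1.37 ± 0.17 (limma, adjusted p = 0.00213). The cause of these values was not tested. Of 12 TGF-beta and YAP targets, 5 fell in response 1, with Ankrd1, a cardiac ankyrin repeat protein, at -2.19 and -0.28 and Ccn2, a matricellular protein, at -1.78 and -0.38.

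**Figure D5:**
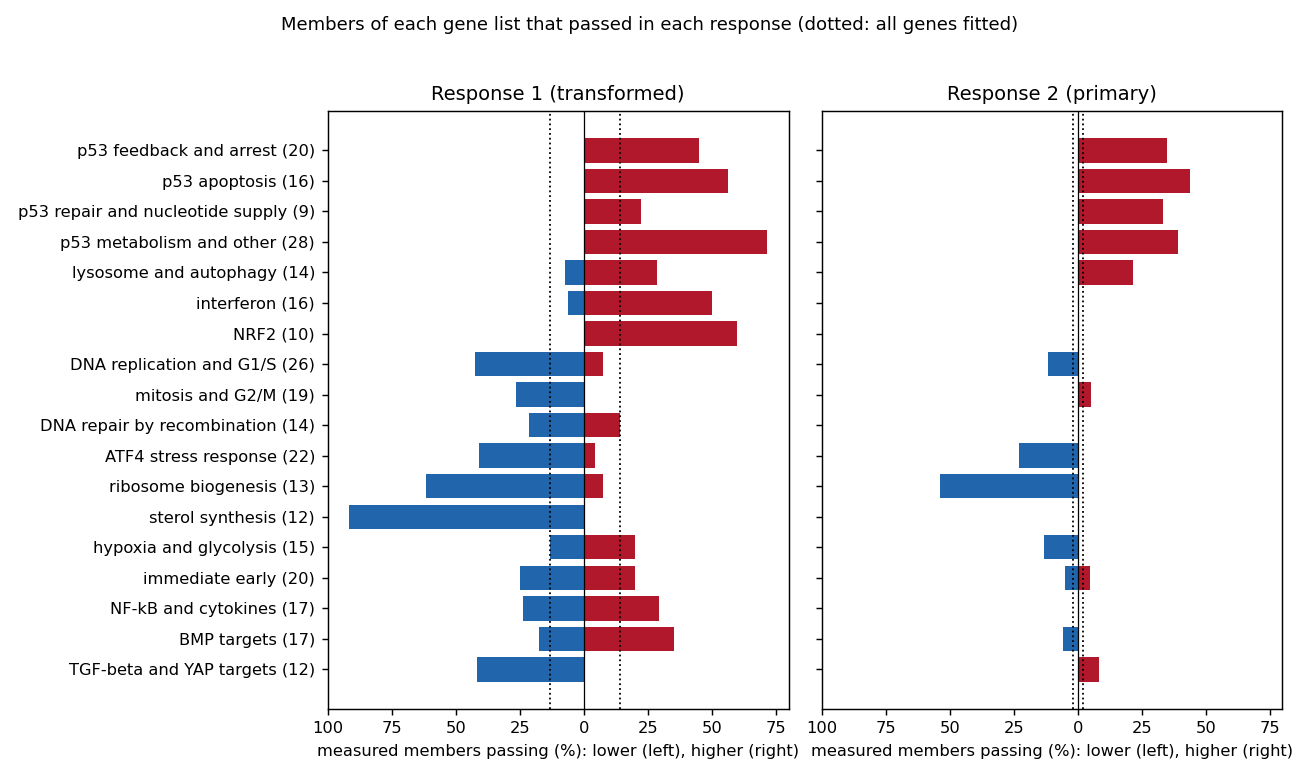
Share of the measured members of each gene list that passed as higher (red, right) or lower (blue, left) in response 1 and response 2, with the number measured in brackets and dotted lines at the share of all genes fitted. The 4 p53 lists exceed the dotted lines for higher genes in both panels, the repair list with only 2 of 9 genes in response 1. The lysosome and immediate early lists also exceed them in both panels. The interferon and NRF2 lists, among others, do so in response 1 alone, and the sterol synthesis list lies far to the left in response 1.

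Genes of response 2 alone were 48 higher and 19 lower, 0.545% and 0.216% of the 8811 genes, and for 43 of the 48 the times did not overlap. Rab1b, a GTPase of traffic from the endoplasmic reticulum, was at 1.33 and 1.56 on the untreated arrays, 1.46 and 1.52 with ADR, 1.63 and 1.66 with BMP2 and 1.33 and 1.26 with both on transformed arrays and at 1.11, 1.28, 1.57 and 1.42 at 8 h and at 2.38, 2.25, 2.46 and 2.30 at 16 h on primary arrays. The transformed levels overlap, and every 16 h array lies above every 8 h array. Its responses were 0.0058 and 1.00. Rab6a, a GTPase of the Golgi, changed by -0.17 and 0.72, while a further probe detected on all arrays gave -0.17 and 0.092. Arf5, a GTPase of vesicle coats, changed by -0.016 and 0.86, Utrn, utrophin, by -0.23 and 0.61, and Ltbp2, a matrix protein, by 0.11 and 0.96. Arhgap24, which speeds GTP hydrolysis by Rac, was at 2.93 and 3.07 on the untreated arrays, 2.89 and 2.83 with ADR, 2.70 and 2.65 with BMP2 and 2.86 and 2.80 with both and then at -0.49, 1.29, -0.59 and 1.43 at 8 h and at 0.68, 2.18, 0.52 and 2.27 at 16 h. It was higher with BMP2 in all 4 primary pairs, more so than with time. A further probe of the gene, stood at 0.65 in response 1, where it was detected on all 8 arrays, and at -0.16 in response 2, where it was undetected. Slc7a5, an amino acid transporter and ATF4 target, fell, at 0.056 and -0.83, as did Ung, a uracil DNA glycosylase, at 0.17 and -0.85. A further Ung probe, undetected on transformed arrays, stood at -0.19 in response 2.

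Markers of other cell types were summed on each array. Their signals relative to the 75th percentile of the array ranged over 520 to 541 without BMP2 and 437 to 561 with it for 16 fibroblast markers, and over 94.1 to 130 at 8 h and 85.4 to 115 at 16 h. For 11 epithelial markers, of which Krt8, Epcam, Cdh1, Cldn3 and Cldn7 were undetected in both sets, they ranged over 4.01 to 4.74 without BMP2 and 5.39 to 11 with it, and over 14.2 to 28.1 and 13.8 to 19.2 at 8 h and 16 h. The 7 endothelial markers, with Pecam1, Cdh5, Kdr and Tek undetected, ranged over 2.73 to 3.15 without BMP2, 3.74 to 6.52 with it, 2.96 to 3.12 at 8 h and 2.69 to 3.16 at 16 h. The 4 macrophage markers with a probe ranged over 2.10 to 2.38, 2.34 to 2.63, 1.52 to 1.65 and 1.22 to 1.44 in that order. Ptprc and Aif1 were undetected, while Adgre1 and Lyz2 were detected on all 8 transformed arrays and on 0 primary ones. Of the epithelial markers, Krt18, St14 and Esrp1 were detected on all 8 primary arrays, Cldn4 on 6 and Krt7 on 2. Of the endothelial markers, Mmrn2 was detected on 8 primary arrays and Emcn on 3. The part of these markers in the responses was not tested.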

How the data were processed

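Total RNA of 16 MEF samples was measured on Illumina BeadChip arrays, 1 array per condition, and exported with GenomeStudio 2011.1 per the submitters' processing notes. The deposited signals are bead intensity values per probe on a linear scale, and the deposited detection columns, headed as a p-value, hold 1 minus it and were turned round. The deposited log2 table was, on 15 arrays and within 0.000766, the log2 signal minus the array's 75th percentile and minus a constant per probe, so its scale and direction are known and its column medians run from -0.139 to 0.181. The probe constants cancel in every contrast here. In the deposited signals the arrays of BMP2 alone hold identical values for both genotypes, and those of Smad1-/- were recovered from the log2 table (99.8% of values within 0.01 of a 0.1 step). Of 24613 probes, 20984 named 1 gene in the platform table, 1 several and 3628 none.

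Probes detected (p under 0.05) on at least 2 of the 8 arrays of a set were kept, and the brightest stood for its gene, which left 10899 genes. One limma fit (limma 3.58.1, R 4.3.3) of the log2 values of all 16 arrays had terms for genotype or time and for the agent combination in each set, leaving 6 residual degrees of freedom. The SE comes from departures from additive effects, and p-values measure only the spread between these arrays, which may be technical. Interactions with genotype or time came from a fit with 3 added terms. On simulated data with 10899 genes, changes of 0.5 were recovered in 43.3% of cases for response 1 and 49.3% for response 2, and changes of 1 and 2 in 100%. A call needs an estimate of at least 0.5, so true changes of 0.5 are often missed whatever the noise. The simulated noise was independent at the fitted variance, so these shares do not show the power in the face of differences between cultures. A gene undetected on all arrays of 1 side has only a bound as its fold.

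Members and gene lists were chosen with earlier results of these data known. Of 447 entries in 23 lists, 346 were measured. Genes were named by rule: the 5 markers, Smad1 and Trp53, the 10 shared higher and 10 shared lower genes with the largest smaller response and 1 sign in all 8 pairs, the 8 genes of each response alone with the largest difference, 6 opposite genes, and up to 4 members per list. Other named genes were chosen after their values were seen, among them Phlda3, Gadd45a, Zmat3, Bbc3, Ddb2, Perp, Ei24, Id1, Id2, Rrp9, Mthfd2 and Shmt2. Alternatives were neqc on the signals (offset 16), median scaling, a change of at least 1, the mean of a gene's probes, a filter of detection on every array or none, additive agent terms, separate fits of the sets, and the omission of each array in turn. Figures were drawn with Python 3.11.15 and matplotlib 3.10.9.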

Additional observations from a re-analysis of the deposited data

Results flagged for a closer look

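The contrast of response 1 minus response 2 passed for 3030 of 10899 genes (27.8%). It is made of the values that the rule used, so the count only describes them. Of these calls 60.7% were higher, or 32.0% with median scaling. The genes fitted include 1466 detected in the transformed set alone and 622 in the primary set alone. The BMP2 by ADR contrast passed for 1690 genes on the transformed arrays, so the BMP2 response there differed with the ADR label, or with the time of the untreated arrays. The time by BMP2 contrast on the primary arrays passed for 1 gene, Sytl1, whose value was 1.09 ± 0.13 (limma, adjusted p = 0.0214). Its 16 h minus 8 h differences were 0.21 untreated, -0.06 with ADR, 1.19 with BMP2 and 1.14 with both. No explanation was tested.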

How the results depend on the processing

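The called change of no named gene turned its sign under any alternative run, but with median scaling the majority of calls of the difference turned from higher to lower and the median of all genes in response 2 from -0.13 to 0.04. With neqc, response 2 passed for 839 genes, shared genes numbered 384, response 2 alone 123, opposite 87, the ADR label on transformed arrays 919 and the BMP2 label on primary arrays 770. Median scaling gave 130 genes of response 2 alone and raised the higher share of calls in response 2 from 52.4% to 90.1%, while it lowered that of the difference from 60.7% to 32.0%. With neqc the higher share was 49.5% for the difference. At a change of at least 1 the counts were 831 for response 1, 38 for response 2, 759 for their difference, 21 shared, 307 and 2 for response 1 and response 2 alone, 0 opposite, 233 for BMP2 by ADR, 31 and 3 for the ADR label on transformed and primary arrays and 70 for the BMP2 label on primary arrays. Time by BMP2 gave 0 with detection on every array and with additive terms, and the primary ADR label 9 with additive terms. The cause was not tested.

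Leaving out each array in turn gave 2920 to 3025 genes for response 1, 404 to 485 for response 2, 2993 to 3117 for the difference, 197 to 230 shared, 1314 to 1414 and 63 to 81 for response 1 and response 2 alone and 35 to 41 opposite. The other ranges were 1464 to 1819 for BMP2 by ADR, 0 to 44 for genotype by BMP2 (44 without either untreated transformed array), 0 to 0 for time by ADR, 0 to 1 for time by BMP2 (0 without any 1 primary array), 498 to 541 and 14 to 25 for the ADR label on transformed and primary arrays (14 without the primary BMP2 array of 8 h or the untreated one of 16 h, 15 without that of both agents at 16 h) and 390 to 456 for the primary BMP2 label. No paired analysis was possible because the labels give each condition a single array (replicate 1 only), so there is no replicate number to block on, and arrays are matched by genotype or time and by agent through the terms of the fit. A block for the slide was not run, since the files name no slide, and the difference was not run with each set fitted alone. Signal over background limits genes near detection, such as Fas on primary arrays.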
